A study of Mus musculus with 24 samples.

Results

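Uroplakins are the membrane proteins that cover the urinary face of the urothelium, and 8 genes read here as urothelial were described across mouse kidneys during ureteric obstruction and its reversal. The rule took every row whose symbol was Upk followed by a digit, together with Krt5 and Psca, and found 8 of the 14785 genes in the deposited table: Upk1a, Upk1b, Upk2, Upk3a, Upk3b, Upk3bl, Psca and Krt5. The 24 libraries came from kidneys of male C57/BL6 mice, labelled as 8 weeks old, with 4 animals in each of 6 groups. Sham animals had surgery without obstruction. UUO2 and UUO7 animals had the ureter tied (unilateral ureteral obstruction) and were killed after 2 or 7 days. In R1W, R2W and R4W animals the ureter was re-implanted after 7 days of obstruction, and they were killed 1, 2 or 4 weeks later. No genotype is labelled, and the 4 libraries of a group were chosen from 10 animals. The title of the series names the cortex of the kidney, the samples only the kidney, and the part of each organ that was taken is not labelled. The R4W replicate 2 library has a title that says 4 weeks and a treatment label that says 2 weeks, and it was grouped by its title.

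The urothelium is the stratified lining of the renal pelvis, ureter and bladder. Its superficial umbrella cells carry rigid plaques in which the tetraspanins Upk1a and Upk1b pair with Upk2 and Upk3a, and these plaques help to make the surface impermeable to urine. Upk3b, a relative of Upk3a, can also bind Upk1b and is known from mesothelium as well, while Upk3bl is its less studied neighbour in the genome. Psca is a surface protein anchored by a lipid and is found in urothelium and other epithelia. Krt5 is a keratin of the basal cells of stratified epithelia. A whole kidney is mostly tubule, so the lining of the pelvis is a small part of the organ, and in a bulk sample more cells of this kind and more RNA per cell cannot be told apart.

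The genes lie on 5 chromosomes of mm10. By the deposited coordinates, Upk1a is at chr7:30603092-30612847 on the minus strand, Upk1b at chr16:38773184-38800203 on the minus strand and Upk2 at chr9:44452715-44454976 on the minus strand. Chromosome 15 holds Upk3a at chr15:85017141-85022560 on the plus strand, Psca at chr15:74714839-74717069 on the plus strand and Krt5 at chr15:101707070-101712891 on the minus strand. Upk3b, at chr5:136038496-136046487, and Upk3bl, at chr5:136054492-136064326, are both on the plus strand and are 8004 bases apart. The 250 bases before the RefSeq start (GRCm38.p6) are shown for Upk3a and its 2 relatives, because their values after reversal are set side by side below. They are in lower case, with the only motif match in capitals, and run 5′ to 3′ at chr15:85016891-85017140, chr5:136038246-136038495 and chr5:136057017-136057266. The window of Upk3bl begins inside the deposited gene, at a start further downstream.
Upk3a: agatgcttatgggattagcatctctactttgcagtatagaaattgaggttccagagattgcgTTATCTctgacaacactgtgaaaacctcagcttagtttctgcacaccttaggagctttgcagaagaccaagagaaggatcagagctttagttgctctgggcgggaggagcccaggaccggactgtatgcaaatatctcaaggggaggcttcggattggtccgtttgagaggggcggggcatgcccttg
Upk3b: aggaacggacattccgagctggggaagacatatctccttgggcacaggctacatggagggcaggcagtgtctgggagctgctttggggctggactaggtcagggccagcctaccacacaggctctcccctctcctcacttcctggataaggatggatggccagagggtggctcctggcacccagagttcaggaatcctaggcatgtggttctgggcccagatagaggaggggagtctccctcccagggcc
Upk3bl: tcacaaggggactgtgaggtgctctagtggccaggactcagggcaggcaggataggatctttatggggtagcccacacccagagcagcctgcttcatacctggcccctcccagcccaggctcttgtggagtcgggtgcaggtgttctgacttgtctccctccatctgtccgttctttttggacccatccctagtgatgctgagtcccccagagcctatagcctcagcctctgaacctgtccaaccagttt
RefSeq windows were found for 5 of the 8 genes (Upk1a, Upk3a, Upk3b, Upk3bl and Krt5). In these, both strands were searched for 6 motifs. The Upk1a window, at chr7:30612735-30612984, also lies partly inside the deposited gene. The bases just after its start were not found in the transcript of the gene. AGATAA, the motif bound by GATA factors, was found on the reverse strand of the Upk3a window, 188 bases upstream of the start, and in none of the other 4 windows. Of all 32851 promoter windows of this length, 9.99% hold it. None of the 5 windows held the TATA box (TATAAA, in 12.4% of all windows) or the grainyhead-like motif (AACCGGTT, in 0.116%). The FOXA motif TGTTTAC (3.17% of all windows), the AP-1 motif TGACTCA (4.46%) and the PPAR direct repeat (AGGTCA, any base, and the same letters again, 0.0335%) were also not in them. These are matches of letters only.

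Values are given as fragments scaled by transcript length and library size (FPKM), a unit inferred from the files as described under the processing. Depth could be recovered from the steps between low values in 5 libraries: the 4 sham libraries implied 32000000, 32300000, 34900000 and 32400000 fragments and UUO7 replicate 4 implied 29500000. For the remaining libraries it is unknown. The UUO2 libraries also differed from the other 20 in mt-Rnr1, a mitochondrial ribosomal RNA, at 2343 to 2832 against 342 to 709 FPKM, so the group and this library difference cannot be told apart. Proximal tubule genes (7 with a row) summed to 36888 to 49545 FPKM in sham, as in kidney. Of 21 other genes listed as urothelial, 16 had a row; Krt13, Trp63, Shh, Foxa1 and Grhl3, which include transcription factors that define the lining, did not. Of the 16, 6 (Krt7, Snx31, Cldn4, Cldn7, Elf3 and Ehf) were already at 5 FPKM or more in sham replicates 1, 3 and 4.

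The tetraspanin Upk1a was near 1 FPKM in 3 sham kidneys. Its values in sham replicates 1 to 4 were 0.93, 8.97, 1.06 and 0.8 FPKM, in UUO2 0.45, 0.91, 0.37 and 0.77 FPKM, and in UUO7 3.96, 2.59, 3.81 and 5.69 FPKM. After reversal they were 7.78, 9.31, 4.2 and 3.04 FPKM in R1W, 12.4, 7.33, 10.5 and 9.43 FPKM in R2W, and 34.9, 12.4, 22.1 and 21.2 FPKM in R4W. All R4W kidneys lay above all UUO7 and all R1W kidneys, and R4W overlapped R2W only through replicate 2 (12.43 against 12.44 FPKM).

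Its partner Upk2 followed the same order at a lower level. Sham measured 0.03, 4.31, 0.22 and 0.2 FPKM, UUO2 0.03, 0.14, 0.06 and 0.43 FPKM, and UUO7 1.8, 1.4, 2.04 and 3.08 FPKM. R1W measured 3.17, 4.75, 2.41 and 1.3 FPKM, R2W 5.83, 3.87, 4.55 and 5.11 FPKM, and R4W 20.5, 5.2, 12.0 and 11.3 FPKM. Sham replicate 2 again exceeded all 4 UUO7 kidneys, and the R4W group did not overlap UUO7 or R1W. Upk1a and Upk2 were the 2 genes whose R4W kidneys all lay above all R1W kidneys (5.68% of all genes).

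Upk1b, the other tetraspanin, was below 1 FPKM in the same 3 sham kidneys and in all UUO2 kidneys. Sham measured 0.17, 6.93, 0.35 and 0.36 FPKM, UUO2 0.03, 0.31, 0.01 and 0.45 FPKM, and UUO7 3.77, 3.06, 3.92 and 6.68 FPKM. R1W measured 5.93, 11.4, 5.14 and 2.18 FPKM, R2W 14.5, 3.89, 9.42 and 8.1 FPKM, and R4W 27.0, 8.25, 19.9 and 15.8 FPKM. R4W lay above UUO7 throughout but overlapped R1W, whose replicate 2 was at 11.4 FPKM.

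Upk3a, the partner of Upk1b, reached the highest group mean of the 4 plaque genes. Sham measured 0.29, 10.2, 0.45 and 0.81 FPKM, UUO2 0.04, 0.52, 0 and 0.61 FPKM, and UUO7 4.59, 2.47, 5.31 and 8.03 FPKM. R1W measured 6.28, 17.9, 3.78 and 3.05 FPKM, R2W 25.3, 5.04, 13.0 and 9.28 FPKM, and R4W 34.2, 10.9, 32.8 and 19.0 FPKM. The mean ± SD rose in size from 5.10 ± 2.30 FPKM in UUO7 to 24.2 ± 11.2 FPKM in R4W (n = 4 each), with no overlap between these groups, while R1W and R2W each overlapped both.

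Of the other Upk3 genes, Upk3b measured 0.29, 5.26, 0.37 and 0.79 FPKM in sham, 0.16, 0.2, 0.08 and 0.41 FPKM in UUO2, and 2.92, 2.45, 3 and 5 FPKM in UUO7. It then measured 3.23, 9.04, 1.65 and 1.93 FPKM in R1W, 9.45, 1.85, 2.65 and 2.12 FPKM in R2W, and 10.7, 3.65, 7.41 and 7.09 FPKM in R4W. All 3 recovery groups overlapped UUO7, R4W only through replicate 2. Upk3bl had the lowest mean of the 8 over all 24 libraries, at 1.17 FPKM, although in UUO2 it was above Upk1b, Upk2, Upk3a and Upk3b. It was at 0.05 to 0.3 FPKM in sham, 0.22 to 0.59 FPKM in UUO2, 1.23 to 1.75 FPKM in UUO7, 0.51 to 2.3 FPKM in R1W, 0.59 to 2.72 FPKM in R2W and 1.33 to 3.04 FPKM in R4W. Its UUO7 libraries all lay above all 4 sham libraries, as did those of Krt5 (56.9% of all genes did so); in the other 6 genes sham replicate 2 lay above every UUO7 kidney.

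Psca had the highest values of the 8. Sham measured 0.26, 60.9, 0.69 and 2.73 FPKM, UUO2 0.51, 0.95, 0.49 and 1.01 FPKM, and UUO7 16.0, 16.6, 25.6 and 32.1 FPKM. R1W measured 22.7, 61.7, 10.4 and 9.42 FPKM, R2W 63.7, 7.67, 25.4 and 18.3 FPKM, and R4W 124, 30.7, 90.3 and 72.9 FPKM. R1W and R2W each overlapped both UUO7 and R4W, and within them R1W replicate 2 and R2W replicate 1 were far above the other kidneys.

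Krt5, the basal keratin, measured 0.03, 3.79, 0.08 and 0.14 FPKM in sham, 0.17, 0.99, 0.03 and 1.15 FPKM in UUO2, and 4.08, 7.32, 5 and 8.1 FPKM in UUO7. Recovery values were 5.33, 8.95, 3.1 and 1.93 FPKM in R1W, 15.9, 3.51, 9.86 and 8.56 FPKM in R2W, and 24.0, 5.81, 15.5 and 8.9 FPKM in R4W. The UUO7 kidneys lay above every sham kidney, and R4W overlapped UUO7.

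**Figure D1:**
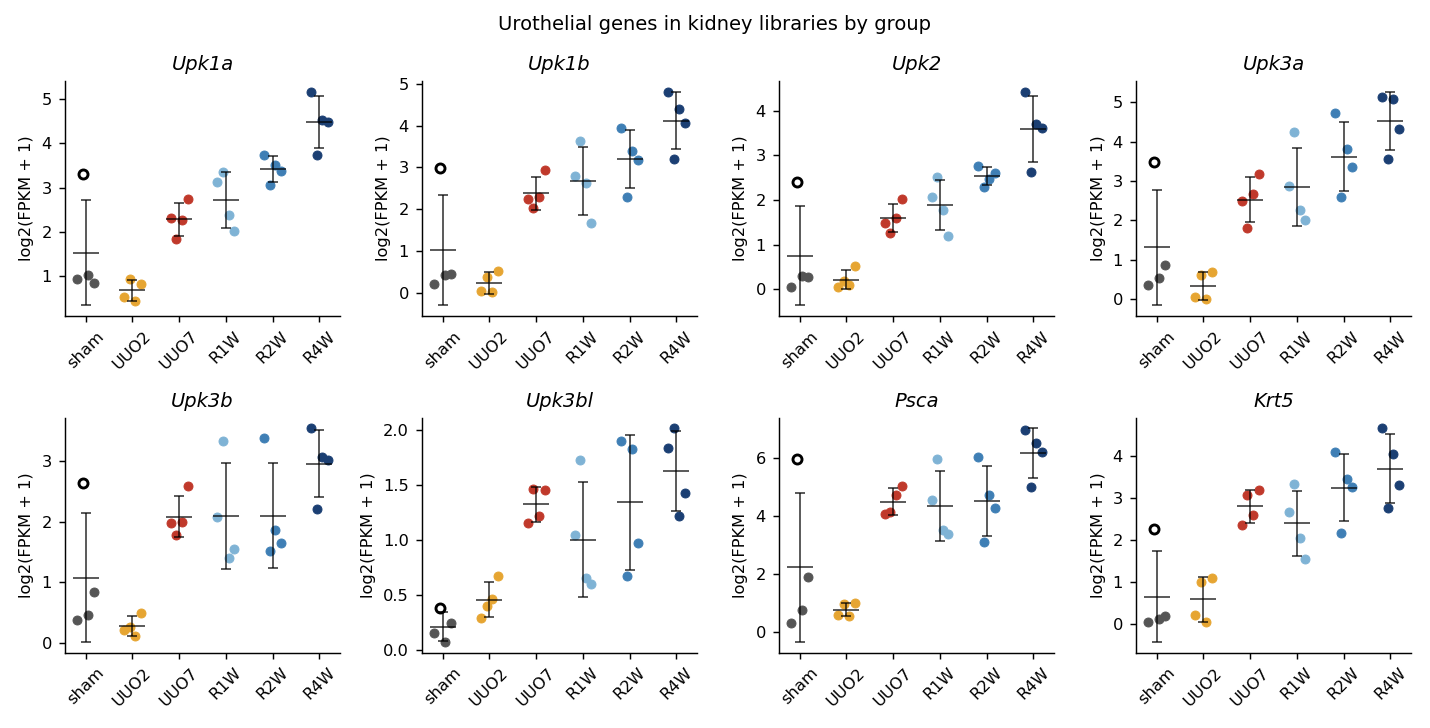
Each panel plots 1 gene on a log2(FPKM + 1) axis against the 6 groups; points are kidneys, the bar is the mean ± SD (n = 4) and the open circle is sham replicate 2. The open circle lies far above the other 3 sham kidneys in all genes but Upk3bl, and the R4W points reach the highest values.

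Ordered by the median summed level of the 4 plaque genes (Upk1a, Upk1b, Upk2 and Upk3a), the groups ran from UUO2 (1.22 FPKM) through sham (2.13 FPKM), UUO7 (14.6 FPKM), R1W (19.3 FPKM) and R2W (34.7 FPKM) to R4W (77.0 FPKM). Between neighbours in this order, all 8 genes overlapped between sham and UUO2, between UUO7 and R1W, between R1W and R2W, and between R2W and R4W. The share of all genes that overlapped in these pairs is not given here, so this is not read as a trait of the 8. In the authors' deposited table, 0 of 8 genes were higher in R2W than in R1W, where 0.0823% of all genes were. From R2W to R4W, 2 of 8 were higher in that table (Upk1a and Upk2, against 0.502% of all genes). Without R4W replicate 2, which the labels also place at 2 weeks, 4 of the 8 genes (Upk1a, Upk1b, Upk2 and Psca) lay wholly above R2W, against 3.98% of all genes.

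Sham replicate 2 stood apart from the other sham kidneys. Its values were 8.46 times the highest other sham kidney for Upk1a, 19.3 times for Upk1b, 19.6 times for Upk2, 12.6 times for Upk3a, 6.66 times for Upk3b, 22.3 times for Psca and 27.1 times for Krt5, but 1.67 times for Upk3bl. At the implied depth Upk3a corresponded to about 312 fragments in that library and to 9, 15 and 25 in the others, and Krt5 to 251 against 2, 6 and 9. Other genes were high in the same library. Of the 16 other urothelial genes, 15 were highest there, and they summed to 253 against 118 to 141 FPKM in the other sham kidneys. The inner medulla genes (4 of 4 with a row, all 4 highest in replicate 2) summed to 620.3 FPKM against 66.5 to 96.9 FPKM in the other sham kidneys, collecting duct genes (7 of 7 with a row, 5 highest) to 938 against 385 to 528 FPKM, and the 8 adipocyte genes with a row (of 10 listed, all 8 highest) to 198 against 41.6 to 47.1 FPKM. The adipocyte sum in sham replicates 1, 3 and 4 was nearly all Car3, at 40.5, 45.9 and 43.2 FPKM, against 57.9 FPKM in replicate 2. The 8 smooth muscle genes with a row (of 10, all 8 highest) summed to 120 against 61.8 to 76.1 FPKM, whereas the 7 proximal tubule genes summed to 36888 against 45790 to 49545 FPKM and the 3 mesothelial genes with a row to 33.9 against 42.8 to 44.8 FPKM. That last sum is mostly Gpm6a (30.5 against 41.1 to 42.1 FPKM), while Msln was highest in replicate 2, at 1.47 against 0.06 to 0.11 FPKM. Their part in the sham replicate 2 values was not tested. Of 9376 genes at 5 FPKM or more in this library, Psca had the fourth largest log2 difference to the highest other sham kidney; Cfd, an adipocyte secreted protease, led at 91.8 against 0.17 FPKM, and the others ahead of or next to Psca were Rpl38-ps2 (39.1 against 0 FPKM), Gm15536 (35.8 against 0), Sptssb (15.2 against 0.13) and Sprr2a2 (79.9 against 4.84).

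The sum of the inner medulla genes was highest in the same kidneys. In 6 of 6 groups the kidney with the highest plaque sum also had the highest inner medulla sum: sham 2, UUO2 4, UUO7 4, R1W 2, R2W 1 and R4W 1. The sum is mostly Akr1b3, aldose reductase, which alone was 559 FPKM in sham replicate 2. Taken singly, Akr1b3 and the urea transporter Slc14a2 were highest in that kidney in 6 of 6 groups, Slc6a12 in 4 and Slc5a3 in 1. The same kidney was the highest of its group for the other urothelial genes in 5 of 6 groups. It was the highest of its group for the collecting duct list in 4 of 6 groups and the lowest for the proximal tubule list in 5 of 6. For the smooth muscle list it was the highest in 3 groups and the lowest in 1. For the mesothelium and adipocyte lists it was the highest in 2 groups and the lowest in 2, for each list. How many of all genes were highest in these kidneys was not counted. In R4W, replicate 1 also had an adipocyte sum of 1228 FPKM and replicate 3 of 354 FPKM, against 6.63 and 24.5 FPKM in replicates 2 and 4. In replicates 2 and 4 the adipocyte sum was mostly Car3, at 4.01 and 23.5 FPKM. The part of these sums in the plaque values was not tested.

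**Figure D2:**
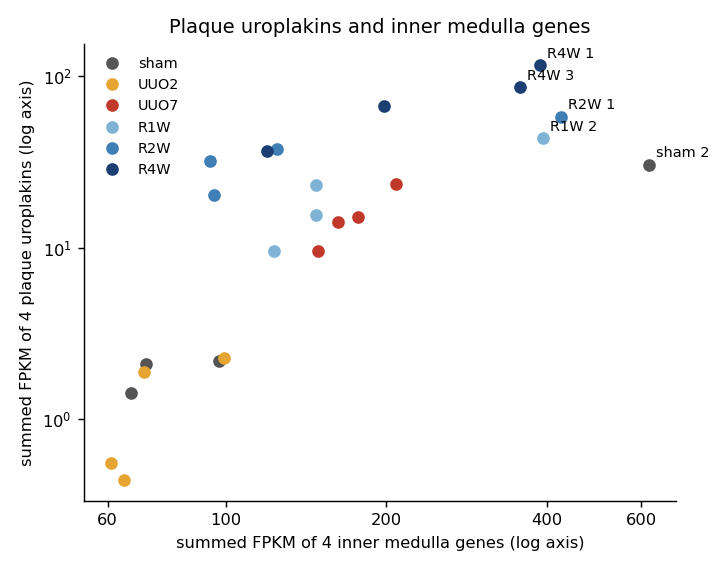
Each point is a kidney, with the summed FPKM of 4 inner medulla genes on a log x axis and the summed FPKM of the 4 plaque genes on a log y axis, coloured by group. Within each group the kidney furthest right is also the highest, and the x value is mostly Akr1b3.

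Between groups, limma was run on log2(FPKM + 1) over all 14785 genes, and a gene was called at an adjusted p under 0.05. No row of the deposited table averaged under 1 FPKM over the 24 libraries, so all 8 genes had passed a filter on low values, and 7 of them averaged under 1 FPKM in the sham kidneys other than replicate 2, so these 7 could be listed only because they were higher in other libraries. Counts of members below are therefore descriptions.

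After 2 days of obstruction none of the 8 genes was called against sham by limma (0 at an unadjusted p under 0.05), where 32.3% of all genes were called higher and 17.0% lower. The median log2 fold change of the 8 was -0.79, with Psca at -1.45 (SE 0.87, adjusted p = 0.176) and Krt5 at -0.06 (SE 0.50, adjusted p = 0.936). These sizes rested on sham replicate 2: without it the median was -0.17 and Psca was at -0.21 (SE 0.62, adjusted p = 0.805). At a pseudocount of 0.1 the test called 3 genes lower (Upk1a, Upk3a and Upk3b; 17.6% of all genes). In the authors' deposited table, 1 of the 8 was lower (Upk3b, log2 fold change -3.03, adjusted p = 0.00692; 24.4% of all genes) and 5 had no adjusted p. The direction of Krt5 turned at that pseudocount (0.28) and without sham replicate 2 (0.48). Among the marker lists, 7 of 7 proximal tubule, 3 of 8 smooth muscle, 1 of 4 inner medulla, 1 of 3 mesothelial and 1 of 7 collecting duct genes were called lower. Called higher were 4 of 8 smooth muscle and 1 of 7 collecting duct genes. Of the 16 other urothelial genes, 5 were called higher, led by Sprr1a at 4.10 and Krt20 at 3.46, and 1 lower (Snx31 at -2.39). The part of these markers was not tested.

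After 7 days, 4 of the 8 genes were called higher than in sham (Upk1b, Upk3bl, Psca and Krt5), where 60.1% of all genes were called higher, so the share was not above the background. The log2 fold changes were 2.27 for Psca (SE 0.87, adjusted p = 0.022), 2.14 for Krt5 (SE 0.50, adjusted p = 0.000594), 1.36 for Upk1b (SE 0.51, adjusted p = 0.019) and 1.11 for Upk3bl (SE 0.25, adjusted p = 0.00044); the median over all genes was 0.42. In the same comparison 7 of 7 proximal tubule genes, 3 of 7 collecting duct genes and 2 of 4 inner medulla genes (Slc6a12 at -1.04 and Slc5a3 at -0.47) were called lower and 6 of 8 smooth muscle genes higher, and their part in these values was not tested. Without sham replicate 2 all 8 were called (60.2% of all genes) and all 8 lay above sham without overlap (60.9% of all genes), with Psca at 3.50, Krt5 at 2.68, Upk1b at 2.01, Upk3a at 1.94, Upk3b at 1.53, Upk2 at 1.40, Upk1a at 1.34 and Upk3bl at 1.17. With every library rescaled by its median ratio, 2 of 8 were called (Upk3bl and Krt5; 36.5% of all genes), and 8 of 8 once sham replicate 2 was also left out (36.0%), an alternative chosen after the data were seen. In the authors' deposited table, 1 of the 8 genes passed at 0.05 (Upk3bl, log2 fold change 2.62, adjusted p = 5.79e-06), 4 had no adjusted p, and 35.8% of all genes were higher.

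From 2 to 7 days all 8 genes were called higher (52.0% of all genes). The log2 fold changes ran from 0.87 for Upk3bl (SE 0.25, adjusted p = 0.00499) to 3.72 for Psca (SE 0.87, adjusted p = 0.000807), and the groups did not overlap in any of the 8, against 47.9% of all genes. In the same comparison 8 of 8 smooth muscle, 13 of 16 other urothelial, 2 of 3 mesothelial and 1 of 4 inner medulla genes were called higher. Called lower were 5 of 7 proximal tubule, 3 of 7 collecting duct and 1 of 8 adipocyte genes, where 2169 of all 14785 genes were. The part of these markers, and that of the mt-Rnr1 difference of the UUO2 libraries, was not tested.

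In the week after reversal no member was called: 0 of 8 genes by limma (0 at an unadjusted p under 0.05), where 6.47% of all genes were called higher and 8.04% lower. The log2 fold changes lay between -0.40 for Krt5 and 0.43 for Upk1a, and R1W overlapped UUO7 in all 8 genes. These values depended on R1W replicate 2, the kidney of highest plaque sum in its group. Without it they lay between -0.71 for Krt5 and 0.22 for Upk1a, with Psca at -0.68, Upk3bl at -0.56, Upk3b at -0.41 and Upk3a at -0.15, and 0 genes were called and 1 had an unadjusted p under 0.05. In R1W against UUO7, 6 of 7 proximal tubule, 3 of 7 collecting duct, 1 of 4 inner medulla and 1 of 3 mesothelial genes were called higher. Of the 16 other urothelial genes 1 was called higher and 3 lower. The part of these markers was not tested.

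By 4 weeks after reversal, the 4 plaque genes were higher than at 7 days of obstruction and the other 4 genes were not called, where 17.6% of all genes were called higher. R2W against UUO7 was not fitted here. In the authors' deposited table, 4 of 8 genes were already higher in R2W than in UUO7 (16.1% of all genes). They were the 4 plaque genes, with log2 fold changes of 1.35 for Upk1a, 1.27 for Upk2, 1.07 for Upk1b and 1.38 for Upk3a. The log2 fold change of R4W against UUO7 was 2.19 for Upk1a (SE 0.42, adjusted p = 0.000295), 2.00 for Upk2 (SE 0.41, adjusted p = 0.000513), 2.00 for Upk3a (SE 0.60, adjusted p = 0.00913) and 1.74 for Upk1b (SE 0.51, adjusted p = 0.00772), while the median of all genes was -0.08. Markers of other cells moved in the same comparison: 7 of 7 proximal tubule genes, 5 of 7 collecting duct genes, 5 of 8 adipocyte genes and 1 of 4 inner medulla genes were called higher, and 3 of 8 smooth muscle genes lower against 1 higher. Their part in the plaque values was not tested. These 4 were also the genes whose R4W libraries all lay above all UUO7 libraries (17.9% of all genes); without R4W replicate 2 it was 7 of 8 (19.4%). The other members were at 1.67 for Psca (SE 0.87, adjusted p = 0.118), 0.90 for Krt5 (SE 0.50, adjusted p = 0.146), 0.88 for Upk3b (SE 0.47, adjusted p = 0.133) and 0.30 for Upk3bl (SE 0.25, adjusted p = 0.338). By the authors' deposited values, in that table, 7 of 8 passed at 0.05 (26.0% of all genes were higher), all but Upk3bl (log2 fold change 0.62, adjusted p = 0.109). In limma, a pseudocount of 10 called 6 of 8 (with Psca and Krt5; 17.8% of all genes) and a fit on these groups alone called 6 (with Psca and Upk3b; 19.2%), so which of the other members were called depended on the test and its settings.

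**Figure D3:**
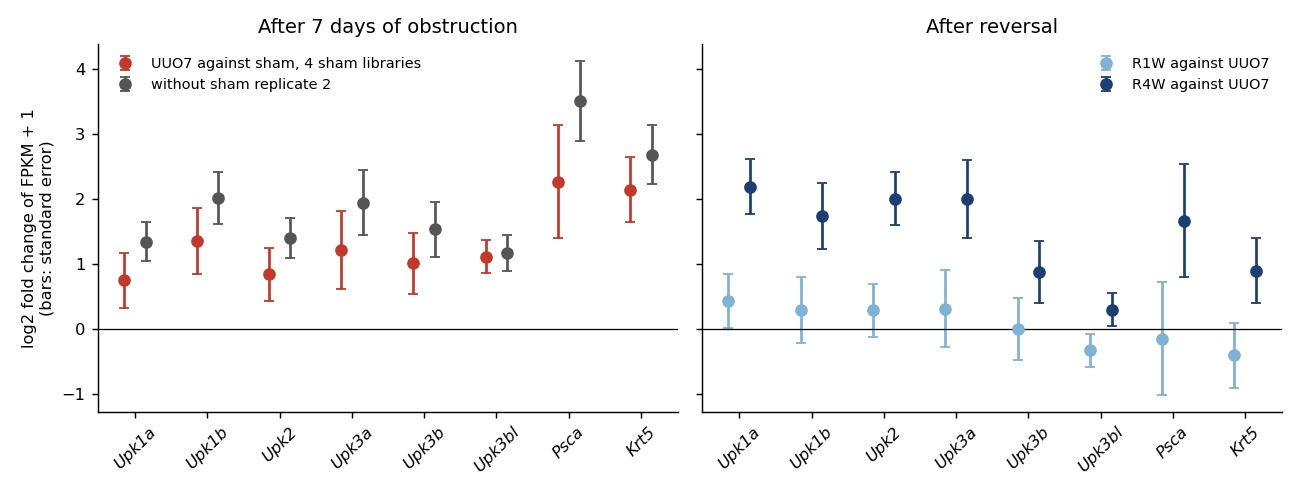
Points are limma log2 fold changes on the log2(FPKM + 1) scale for the 8 genes, with bars of 1 SE; the left panel gives UUO7 against sham with and without sham replicate 2, and the right panel R1W and R4W against UUO7. In R4W against UUO7 the 4 plaque genes lie at 1.74 to 2.19 and Upk3bl at 0.30.

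From R1W to R4W, 2 of 8 genes were called higher (Upk1a and Upk2; 5.06% of all genes). The log2 fold change was 1.76 for Upk1a (SE 0.42) and 1.71 for Upk2 (SE 0.41), each with adjusted p = 0.00951. Leaving out R1W replicate 2 raised the count to 6 (7.23% of all genes) and leaving out R4W replicate 2 raised it to 5 (3.88%). A fit on these groups alone called 0, and it called few genes of any kind higher (0.21%). In the authors' deposited table, 4 of 8 were higher (Upk1a, Upk1b, Upk2 and Upk3a; 8.75% of all genes). In the same comparison 3 of 7 proximal tubule genes, 1 of 7 collecting duct genes (Aqp3, log2 fold change 0.93) and 2 of 8 smooth muscle genes were called higher, and 1 of 8 smooth muscle and 1 of 3 mesothelial genes lower. Of the 16 other urothelial genes 2 were called higher and 2 lower, where 2082 of all 14785 genes were called lower. The part of these markers in these values was not tested. Against sham, all 8 genes were called higher in R4W (54.8% of all genes), from 1.41 for Upk3bl (SE 0.25, adjusted p = 6.75e-05) to 3.93 for Psca (SE 0.87, adjusted p = 0.000536), and all 8 were also called without sham replicate 2 (54.6%). In the authors' deposited table, 6 of 8 were higher, all but Upk3b and Psca (30.9% of all genes). Against sham, 15 of 16 other urothelial, 2 of 3 mesothelial, 1 of 8 adipocyte, 6 of 8 smooth muscle and 4 of 7 collecting duct genes were also called higher in R4W. Called lower were 7 of 7 proximal tubule and 1 of 3 mesothelial genes, where 1710 of all 14785 genes were. The part of these markers was not tested. R4W shares its libraries with the comparison to UUO7 and its sham libraries with the UUO7 comparison to sham, so these are not separate evidence.

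The make-up of the plaque genes varied less than their sum. In the 17 libraries with a plaque sum of at least 5 FPKM the sum ran from 9.52 to 116.6 FPKM, while Upk1a made up 21.4 to 36.4% of it (median 28.1%), Upk1b 19.3 to 33.1% (25.2%), Upk2 10.0 to 19.2% (13.9%) and Upk3a 24.3 to 43.6% (31.9%). Sham replicate 2 was among them, with Upk1a at 29.5%, Upk1b at 22.8%, Upk2 at 14.2% and Upk3a at 33.6% of the sum. Over 24 libraries, the 6 pairs of plaque genes had Pearson r of 0.969 to 0.992 on the log2 scale, the 21 pairs without Upk3bl 0.909 to 0.992 and the 7 pairs with Upk3bl 0.745 to 0.869. Over the 16 libraries from UUO7 to R4W the plaque pairs had 0.915 to 0.987 and the pairs with Upk3bl 0.462 to 0.711. All pairs share library, depth and group, so these are descriptions.

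**Figure D4:**
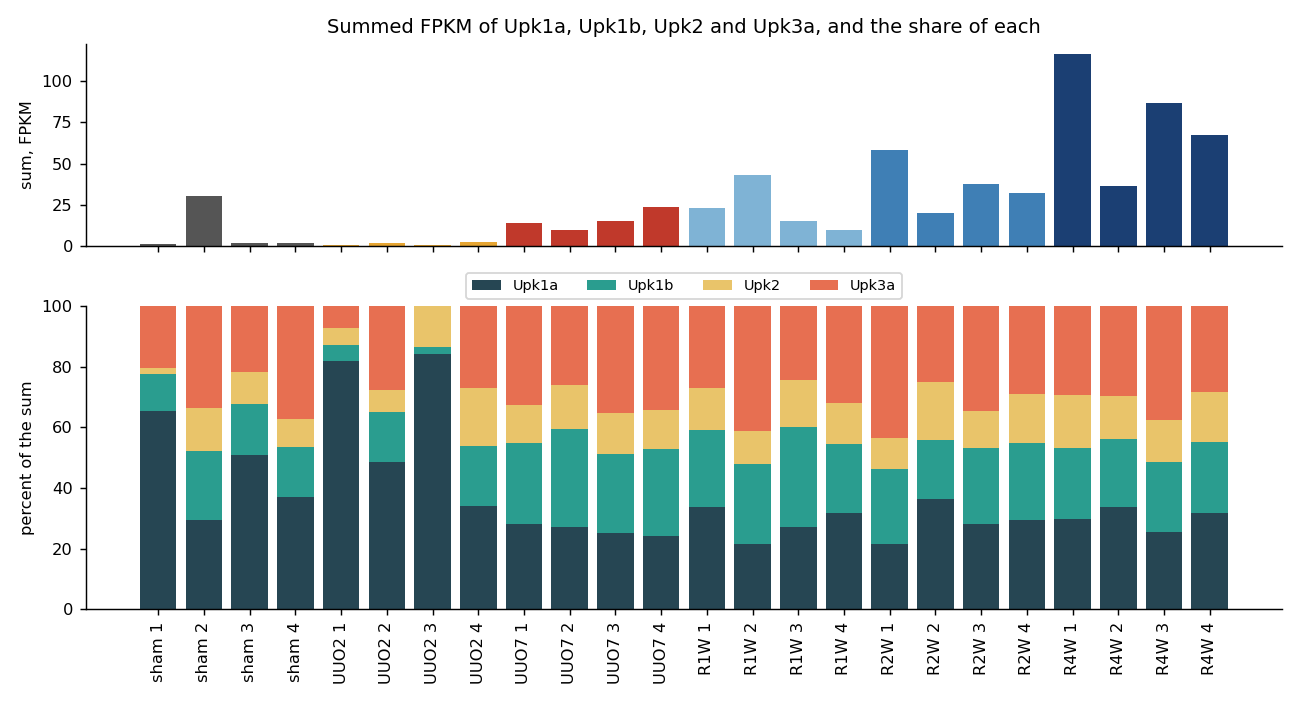
The upper bars give the summed FPKM of the 4 plaque genes in each of the 24 libraries, and the lower stacked bars the percent of that sum held by each gene. Where the sum is 9.52 FPKM or more the shares lie in the ranges given above, and they scatter in the sham and UUO2 libraries of low sum.

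Set against the plaque sum, Upk3b, Krt5 and Psca were at lower ratios in R4W than in UUO7, with no overlap of the kidneys. Divided by the same sum, 89.1% of all genes were lower in R4W without overlap, and the median gene above 0 FPKM in all 8 libraries differed by -2.35 on the log2 scale, so the lower ratios are not particular to these members. They were chosen after the split between the plaque genes and the rest was seen and restate it, so they are given as a description without a test. Upk3b was 0.199 to 0.257 FPKM per FPKM of plaque genes in UUO7 and 0.0854 to 0.106 in R4W, a mean log2 difference of -1.20. Krt5 was 0.289 to 0.769 in UUO7 and 0.132 to 0.206 in R4W, a log2 difference of -1.26. Psca was 1.13 to 1.74 in UUO7 and 0.834 to 1.08 in R4W, a log2 difference of -0.55. Upk3bl was 0.0741 to 0.184 in UUO7 and 0.0153 to 0.0827 in R4W, a log2 difference of -1.81. These groups overlapped only through R4W replicate 2 (0.0827), without which the difference was -2.31.

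**Figure D5:**
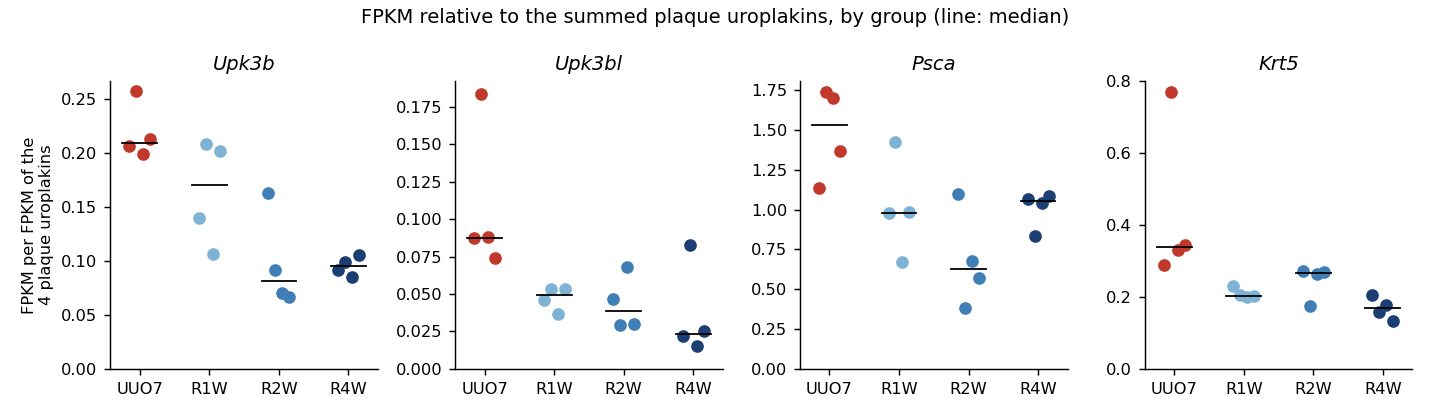
Each panel plots, per kidney, the FPKM of 1 gene divided by the summed FPKM of the 4 plaque genes, for UUO7, R1W, R2W and R4W, with the median as a line. UUO7 lies above R4W for Upk3b, Krt5 and Psca, and overlaps it for Upk3bl.

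Other urothelial genes, from a list of 21, give context for these. Against sham, 14 of the 16 with a row were called higher in UUO7 (60.1% of all genes) and 1 lower (17.8%), with a median log2 fold change of 2.23 (all genes 0.42). The largest were Krt20, a keratin of umbrella cells, at 4.96, Sprr1a, a cornified envelope protein, at 4.76, Cldn4, a tight junction claudin, at 3.52 and the basal keratin Krt14 at 2.88, whereas Snx31 fell by 1.65. Several of these genes are also expressed by tubules, and which cells gave the signal was not tested. Between UUO7 and R4W, 2 of the 16 were called higher (Snx31 at 1.56 and Ehf at 1.10; 17.6% of all genes) and 5 lower (30.8% of all genes), shares near or below those of all genes. Among the lower ones were Krt20 at -2.74, Krt17 at -1.53 and Cldn4 at -1.18. The median of the 16 was 0.04. Krt20 fell from 30.5 to 38.2 FPKM in UUO7 to 1.96 to 7.28 FPKM in R4W over the interval in which the 4 plaque genes were called higher. The 3 mesothelial genes with a row (of 8) did not move together. Against sham in UUO7, Msln was called higher at 2.65 and Wt1 at 0.98, and Gpm6a lower at -1.12. In R4W against UUO7, Msln was called lower at -1.47, and Wt1 (0.49) and Gpm6a (0.44) higher.

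Of genes outside the 8, those whose levels most resembled the plaque genes, by Spearman rho over 24 libraries to the mean of their standardized log2 values, were Sptssb (0.970, and 0.987 without sham replicate 2), Fam174b (0.962), Ephx1 (0.957), AA986860 (0.952) and Ccm2l (0.950). Sptssb, a small subunit of the enzyme that starts sphingolipid synthesis, averaged 0.0825 FPKM in UUO2, 1.59 FPKM in UUO7 and 14.1 FPKM in R4W. Of genes outside the 8, those most like Upk3b were Aldh1a3 (0.967), a retinoic acid synthesizing enzyme, Irs3 (0.966), Map6 (0.962), AU021092 (0.961) and Proser2 (0.960). Among the 8, Psca was at 0.974 to Upk3b.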

How the data were processed

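RNA-seq libraries from 24 mouse kidneys were made by polyA selection and sequenced as paired reads, per the labels. RSEM, Bowtie2, DESeq2 and FastQC and the build mm10 are named in the submitters' processing notes, with no role or version. The deposited table holds 14785 genes with a row mean of at least 1. The unit is not given in the sources used here; the authors' deposited values were read as FPKM, because value times gene length summed to nearly the same total in each library (highest over lowest 1.08). The same deposited table gives the authors' log2 fold changes and adjusted p-values per comparison, which are printed only where named.

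Groups came from the titles. Linear models from limma 3.58.1 (R 4.3.3), with moderated variances that follow a mean trend, were fitted to log2(FPKM + 1) over all genes and 24 libraries with 1 coefficient per group and Benjamini-Hochberg adjustment. A fold change on this scale understates that of low genes. The script was tested on simulated data. The series' design text gives 4 animals per group, so each library was taken as a separate mouse. Named genes were all 8 members, the 5 genes closest to the plaque genes and to Upk3b, up to 4 of the largest called changes per marker list, and the 5 genes highest in sham replicate 2 against the other sham kidneys. Members and lists were chosen with earlier results of these data known, and counts over them are not independent support. Alternatives were another scaling, pseudocounts of 0.1 and 10, a mean of at least 10 FPKM, other fits and thresholds, and leaving out each replicate. Promoter windows came from RefSeq (GRCm38.p6).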

Additional observations from a re-analysis of the deposited data

Results flagged for a closer look

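In groups of 4, a kidney stood apart where its gap to the nearest other kidney was a larger share of the group's range than Dixon's 95% value allows. Of 48 checks 8 did so; chance flags about 1 in 20 independent groups, but these genes vary together, so that is no reference for their number. Sham replicate 2 stood apart in 7 genes: Upk1a at 8.97 FPKM, Upk1b at 6.93, Upk2 at 4.31, Upk3a at 10.24, Upk3b at 5.26, Psca at 60.9 and Krt5 at 3.79 FPKM. These 7 are 1 library and not 7 separate events, and that library was known to stand apart when the genes were chosen. R2W replicate 1 stood apart for Upk3b, at 9.45 FPKM against 1.85 to 2.65 FPKM in the other R2W kidneys; it also had the highest plaque sum and inner medulla sum (424 FPKM) of its group.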

How the results depend on the processing

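Same-numbered libraries of different groups come from different animals, so the numbers do not pair them. Their deviations correlated weakly on average, with a mean r from -0.174 to 0.148 by comparison. Single pairs ran from -0.302 in R4W against sham to 0.451 in R1W against UUO7. With the replicate block the counts of genes called were 0, 4, 8, 0, 4, 2 and 8 in the 7 comparisons (UUO2 against sham, UUO7 against sham, UUO7 against UUO2, R1W against UUO7, R4W against UUO7, R4W against R1W, R4W against sham), as without it. Of all 14785 genes, 4657, 8813, 7597, 889, 2540, 687 and 8032 were then called higher, in the same order. For UUO2 against sham, a pseudocount of 0.1 called 3 genes lower, where 2608 of all 14785 genes were called lower. Below, numbers in brackets are all genes called higher, of 14785 unless another total is given. For UUO7 against sham, the count was 2 after rescaling (5393), 7 at a pseudocount of 0.1 (8914) and 2 at a pseudocount of 10 (8761). With a mean of at least 10 FPKM, where only Psca is tested, it was 1 (4608 of 7747). It was 2 in a fit of these groups alone (8942) and 2 at an adjusted p under 0.01 (8163). After rescaling without sham replicate 2 it was 8 (5323), and leaving out each kidney gave 2 to 8 (8550 to 8898). For UUO7 against UUO2 it was 5 at a pseudocount of 10 (7560) and 1 with a mean of at least 10 FPKM (3890 of 7747). When a log2 difference of 1 or more was also asked it was 7, all but Upk3bl (2057). For R4W against UUO7 it was 6 at a pseudocount of 10 (2626) and 6 in a fit of these groups alone (2840). It was 0 with a mean of at least 10 FPKM (1496 of 7747). For R4W against R1W it was 4 after rescaling (1282), 1 at a pseudocount of 0.1 (653) and 5 at a pseudocount of 10 (823). It was 0 with a mean of at least 10 FPKM (492 of 7747) and 0 in a fit of these groups alone (31). With R4W replicate 2 placed in R2W it was 5 (599), and leaving out each kidney gave 2 to 6 (156 to 1069). For R4W against sham it was 1 with a mean of at least 10 FPKM (3903 of 7747). The low counts at that minimum come from testing fewer genes; the cause of the others was not tested.

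Directions turned in comparisons where no gene was called. For Krt5 in UUO2 against sham the log2 fold change was 0.28 at a pseudocount of 0.1 and 0.50 after rescaling without sham replicate 2, and leaving out each kidney gave -0.26 to 0.48; for Upk2 it gave -0.78 to 0.010. In R1W against UUO7, Upk3b was -0.043 at a pseudocount of 0.1, and leaving out each kidney gave -0.41 to 0.23 for Upk3b, -0.019 to 0.63 for Upk1b, -0.15 to 0.59 for Upk3a and -0.68 to 0.18 for Psca. The cause was not tested.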
